A study of Mus musculus with 18 samples.

Results

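The 10 genes described here mark the 2 macroglial lineages of the cortex or, for *Pdgfa*, encode a ligand that acts on oligodendrocyte progenitors. They are the oligodendrocyte-lineage genes *Olig1*, *Olig2*, *Sox10*, *Pdgfra* and *Cspg4*, with the ligand gene *Pdgfa*, and the astrocyte genes *Gfap*, *Aldh1l1*, *Slc1a3* and *Sox9*. They were chosen by name, not by a measured value, though with earlier results of these data known. They are 10 of the 23038 gene symbols in the deposited abundance table. The cortex RNA came from 12 CD1 mouse embryos at embryonic day 18.5, with 3 embryos in each of 4 groups. *Nova2-/-* embryos carried a cassette in place of the first exon of *Nova2* in every cell and were compared with the wild-type embryos numbered 1 to 3, from the *Nova2* litters. *Nova1-/-* embryos were compared with the wild-type embryos numbered 4 to 6, from the *Nova1* litters. NOVA1 and NOVA2 are neuronal RNA-binding proteins that regulate alternative splicing, and the comparisons ask which transcripts change in abundance when either is absent. Each sample was whole cortex, so fewer cells of a type and less RNA per cell cannot be told apart.

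In the embryonic forebrain, radial glia first give rise to neurons and then, late in gestation, to glia. Oligodendrocyte progenitors are specified by OLIG2, are kept dividing by PDGF-A acting on the receptor PDGFRA, and later turn on SOX10-dependent myelin genes as they differentiate. Astrocytes arise from radial glia under the control of SOX9 and related factors, and SLC1A3, ALDH1L1 and GFAP appear in overlapping stages of that path. Shortly before birth the cortex holds progenitors of both lineages and little myelin.

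The deposited expected counts summed to between 16518172 and 31362018 per mouse. The lowest total belonged to wild-type replicate 2 of the *Nova2* litters, in which 21791 genes had a count, against 18397 to 19396 in the other 11 mice. Values that were not whole numbers made up 7.48% to 11.7% of a library in the *Nova2* litters and 18.6% to 20.0% in the *Nova1* litters. The targeted genes followed the labels. *Nova1* was at 0.0341 to 0.211 CPM (counts scaled to a common library size with edgeR's TMM method) in the 3 *Nova1-/-* mice and at 41.5 to 92.9 CPM in the other 9 mice. *Nova2* was at 17.0 to 21.5 CPM in the 3 *Nova2-/-* mice and at 31.0 to 63.6 CPM in the others. Calls in the *Nova2* comparison depended most on wild-type replicate 3 of the *Nova2* litters. Without it, edgeR's quasi-likelihood test called 1433 genes between *Nova2-/-* and wild-type mice, against 166 with it. Without any other 1 mouse it called 7 to 26. Values without replicate 3 are given beside the results it changed. That mouse was singled out by its effect on the calls, which does not show that its library is the unusual one. *Pdgfra* and *Cspg4* were lowest of all mice in wild-type replicates 1 and 2.

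All 10 genes passed edgeR's filter on low counts in each comparison. Their levels, as CPM per kb of annotated exon so that genes of different length can be compared, spanned from a median of 0.891 for *Sox10* to 33.8 for *Slc1a3* over the 12 mice. *Slc1a3*, which encodes the glutamate transporter GLAST of radial glia and astrocytes, was the highest, at 29.5 to 38.4 CPM per kb. It was followed by *Aldh1l1*, a folate enzyme used as an astrocyte marker, with a median of 20.7 CPM per kb, and *Pdgfra* with 20.1. *Olig1*, a basic helix-loop-helix factor of the oligodendrocyte lineage, had a median of 10.1 CPM per kb. *Gfap*, an intermediate filament protein of astrocytes, had 6.32 and *Olig2* 5.41. The lower levels were those of *Pdgfa* (4.53), *Sox9* (3.24), *Cspg4* (2.18) and *Sox10*. In this order the ranges over 12 mice were separate between *Slc1a3* and *Aldh1l1* and between *Pdgfra* and *Olig1*, and each other neighbouring pair overlapped.

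**Figure D1:**
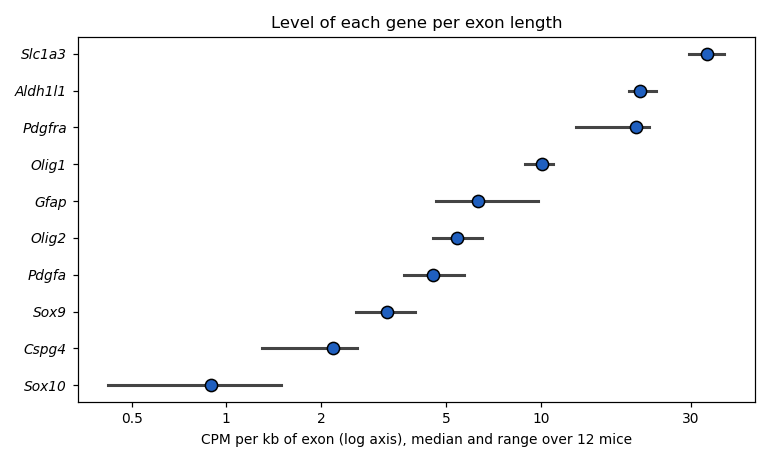
Level of each of the 10 genes as CPM per kb of exon on a log axis, with the median (point) and the range (line) over 12 mice. *Slc1a3* is the highest at a median of 33.8 CPM per kb and *Sox10* the lowest at 0.891, and most neighbouring ranges overlap.

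None of the 10 genes was called between *Nova2-/-* mice and their wild-type littermates at an adjusted p under 0.05 by edgeR's quasi-likelihood test. The p-values were adjusted by Benjamini-Hochberg over 15691 genes, of which 1.06% were called. DESeq2 and edgeR's exact test also called 0 of the 10. At an unadjusted p under 0.05 only *Cspg4* passed, against 19.2% of all genes. The median log2 fold change of the 10 genes was 0.029, beside 0.0092 over all genes tested, and 6 of the 10 values were above 0. The values of the 3 *Nova2-/-* mice lay above those of the 3 wild-type mice for 1 gene, *Slc1a3*, where 13.0% of all genes did, and below them for 0 genes, where 12.8% of all genes did. None of the 10 reached the study's size of change, a log2 value of 1, in any comparison.

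*Pdgfra* encodes the receptor through which PDGF-A acts on oligodendrocyte progenitors, and it is also known from meningeal fibroblasts. It was at 87.2, 96.6 and 139 CPM in the wild-type *Nova2* littermates and at 131, 132 and 124 CPM in the *Nova2-/-* mice. The highest value of the 6 was that of wild-type replicate 3, and the other 2 wild-type values lay below every *Nova2-/-* value. The log2 fold change was 0.26 (SE 0.15, 95% interval -0.091 to 0.62, adjusted p = 0.393). Without wild-type replicate 3 it was 0.49 with an adjusted p of 0.0053, in a fit that called 1433 of 15874 genes. That fit keeps the other 2 wild-type mice, whose *Pdgfra* values were the lowest of all mice. No other of 14 alternatives called *Pdgfra*, and over all of them the log2 value ran from 0.13 to 0.49. In the *Nova1* litters *Pdgfra* was at 143, 133 and 149 CPM in wild-type and 142, 140 and 139 CPM in *Nova1-/-* mice, a log2 fold change of -0.014 (interval -0.13 to 0.11).

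*Cspg4* encodes the proteoglycan NG2, a surface protein of oligodendrocyte progenitors and of pericytes. In the *Nova2* litters wild-type mice had 10.5, 11.7 and 16.1 CPM and *Nova2-/-* mice had 15.3, 16.3 and 21.0 CPM. The groups overlapped through wild-type replicate 3. The log2 fold change was 0.46 (SE 0.19, interval 0.022 to 0.90) with an unadjusted p of 0.0414 and an adjusted p of 0.242. Without wild-type replicate 3 it was 0.67, with an adjusted p of 0.0375. No other of the 14 alternatives called *Cspg4*, and over all of them the log2 value ran from 0.30 to 0.67. In the *Nova1* litters wild-type mice had 17.7, 18.0 and 19.8 CPM and *Nova1-/-* mice 19.8, 20.1 and 17.5 CPM, a log2 fold change of 0.047 (interval -0.15 to 0.25).

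*Pdgfra* and *Cspg4* were the 2 genes called together without wild-type replicate 3, and the 250 bases before their start sites are shown here from RefSeq on GRCm38.p6, plus strand, 5′ to 3′. They were searched for the letters CANNTG, the E-box that basic helix-loop-helix factors such as OLIG2 bind, and for ACAAAG or ACAATG, short forms of the SOX site, on both strands. Capitals mark a CANNTG match.
*Pdgfra*, chr5:75152001-75152250: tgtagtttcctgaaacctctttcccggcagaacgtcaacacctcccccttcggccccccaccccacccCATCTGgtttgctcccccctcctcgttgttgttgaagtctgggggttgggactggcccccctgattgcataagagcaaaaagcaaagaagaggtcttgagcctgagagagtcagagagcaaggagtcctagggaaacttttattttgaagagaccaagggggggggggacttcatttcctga
*Cspg4*, chr9:56864854-56865103: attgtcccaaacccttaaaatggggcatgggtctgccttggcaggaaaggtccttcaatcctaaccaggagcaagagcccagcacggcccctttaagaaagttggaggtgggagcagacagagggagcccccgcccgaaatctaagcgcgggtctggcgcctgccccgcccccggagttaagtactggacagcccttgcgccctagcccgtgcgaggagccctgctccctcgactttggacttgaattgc
*Pdgfra* held 1 CANNTG match and no SOX match, and *Cspg4* held neither. CANNTG occurs in 66.2% of the 32841 windows of this length before RefSeq mouse starts, and the SOX letters in 25.2%. Of the 10 genes, 7 had such a window. The *Olig2* window on chromosome 16 held no CANNTG and 1 SOX match, and those of *Aldh1l1* and *Slc1a3* held 1 CANNTG match each.

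Genes of other cells that carry *Pdgfra* or *Cspg4* differed between the same mice. The summed level of 15 meningeal fibroblast genes was 247, 317 and 628 CPM in the wild-type *Nova2* littermates and 1050, 958 and 1131 CPM in the *Nova2-/-* mice. Of these 15 genes 4 were called higher, *Col1a1*, *Crabp2*, *Dcn* and *Ogn*, with a list median of 1.33 on the log2 scale, and all 15 were called higher without wild-type replicate 3. The summed level of 12 pericyte and mural cell genes was 141, 151 and 177 CPM in wild-type and 223, 232 and 224 CPM in *Nova2-/-* mice, with *Abcc9*, a potassium channel subunit of pericytes, called higher (log2 fold change 0.55) and a list median of 0.71. Without wild-type replicate 3 the test called 7 of the 12 mural genes higher, in the fit that called 1433 of 15874 genes. Each of the 5 calls made with all mice was lost without wild-type replicate 1 or 2 or *Nova2-/-* replicate 1 or 2 of these litters, and that of *Abcc9* also with RLE size factors. Each gene of both lists had a count in at least 1 of the 12 mice, so no defining marker was at 0 in all of them. Both sums were highest among wild-type mice in replicate 3, as were *Pdgfra* and *Cspg4*, and the part of these cells in the 2 results was not tested.

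**Figure D2:**
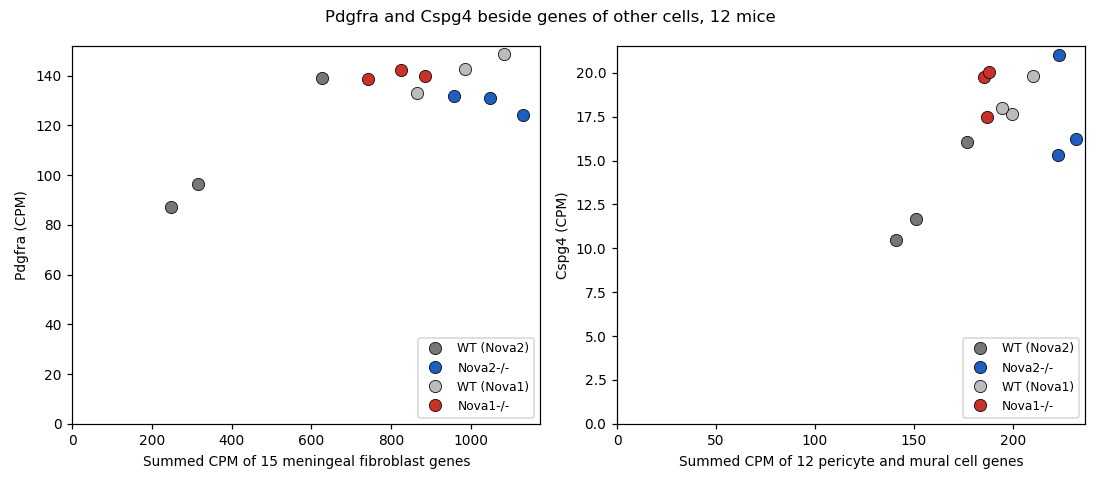
CPM of *Pdgfra* against the summed CPM of 15 meningeal fibroblast genes (left) and CPM of *Cspg4* against the summed CPM of 12 pericyte and mural cell genes (right), 1 point per mouse, with groups by colour. Wild-type replicates 1 and 2 of the *Nova2* litters lie lowest on both axes of both plots, and in the left plot the other 10 mice lie between 124 and 149 CPM of *Pdgfra*.

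*Pdgfa*, the ligand of PDGFRA, was at 14.2, 12.3 and 17.8 CPM in wild-type and 11.9, 14.3 and 11.5 CPM in *Nova2-/-* mice. The log2 fold change was -0.23 (interval -0.60 to 0.13, adjusted p = 0.46). In the *Nova1* litters it was -0.15 (interval -0.41 to 0.11), from 13.8, 14.9 and 17.4 CPM to 15.3, 14.0 and 12.2 CPM, and the groups overlapped in both litters. Of the other PDGF ligands and receptors, 5 genes, none was called in either knockout by edgeR's quasi-likelihood test, and DESeq2 called 1 in *Nova2-/-* mice, as did edgeR's test without wild-type replicate 3. The highest value in the *Nova2* comparison was that of *Pdgfrb*, the PDGF receptor of pericytes and fibroblasts, with 19.5, 23.1 and 32.2 CPM in wild-type and 34.1, 34.4 and 44.5 CPM in *Nova2-/-* mice (log2 fold change 0.60, unadjusted p = 0.0136, adjusted p = 0.157). The lowest was that of *Pdgfc* at 0.090.

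*Olig2*, the factor that specifies the oligodendrocyte lineage, was at 14.5, 15.8 and 15.7 CPM in the wild-type mice of the *Nova1* litters and at 13.2, 13.2 and 12.7 CPM in *Nova1-/-* mice. Every *Nova1-/-* value lay below every wild-type value. The log2 fold change was -0.24 (SE 0.088, interval -0.43 to -0.046) with an unadjusted p of 0.0195 and an adjusted p of 0.596. In the *Nova2* litters wild-type mice had 13.9, 11.9 and 13.6 CPM and *Nova2-/-* mice 11.3, 13.0 and 11.1 CPM, a log2 fold change of -0.16 (interval -0.44 to 0.12) with groups that overlapped. The *Nova2-/-* value minus the *Nova1-/-* value was 0.069 (interval -0.23 to 0.36).

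*Olig1* lies beside *Olig2* on mm9 chromosome 16, with 41091 nt between the annotated genes. It had the smallest change of the 10 in *Nova2-/-* mice, with 23.7, 20.9 and 21.6 CPM in wild-type and 22.4, 22.0 and 22.5 CPM in *Nova2-/-* mice. Its log2 fold change was 0.015 in *Nova2-/-* (interval -0.19 to 0.22) and -0.064 in *Nova1-/-* mice (interval -0.26 to 0.13). As folds these intervals run from 0.874 to 1.17 and from 0.834 to 1.10. *Sox10*, needed for myelin gene expression, was the least precise of the 10, with 29 to 121 counts per mouse. In the *Nova2* litters wild-type mice had 1.14, 2.90 and 4.06 CPM and *Nova2-/-* mice 2.27, 1.93 and 2.74 CPM, so the 3 wild-type mice enclosed the knockouts. Its log2 fold change of -0.22 had an interval from -1.18 to 0.73, and a change within it was not detectable with these mice. The coefficient of variation of these wild-type values was 54.3%. The SE was 0.42, against 0.22 in the *Nova1* comparison.

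*Slc1a3* was at 273, 252 and 265 CPM in wild-type and at 291, 283 and 277 CPM in *Nova2-/-* mice. Every *Nova2-/-* value lay above every wild-type value, by a log2 fold change of 0.11 (SE 0.058, interval -0.021 to 0.24, adjusted p = 0.338). In the *Nova1* litters the log2 fold change was -0.0070 (interval -0.13 to 0.12), with 322, 300 and 310 CPM in wild-type and 327, 315 and 286 CPM in *Nova1-/-* mice. *Aldh1l1* had 86.1, 86.4 and 99.8 CPM in wild-type and 94.6, 93.0 and 92.6 CPM in *Nova2-/-* mice, and its log2 fold change of 0.044 had an interval from -0.13 to 0.22. *Sox9*, a factor that starts gliogenesis, had 11.0, 10.7 and 10.8 CPM in wild-type and 10.9, 12.6 and 12.4 CPM in *Nova2-/-* mice (log2 fold change 0.15, adjusted p = 0.532).

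*Gfap* was at 21.5, 22.6 and 29.3 CPM in wild-type and 24.0, 23.5 and 21.2 CPM in *Nova2-/-* mice, a log2 fold change of -0.094 (interval -0.40 to 0.21). It had the largest coefficient of variation of the 4 astrocyte genes among *Nova1-/-* mice, 35.2%, at 41.4, 32.0 and 19.6 CPM, beside 30.4, 30.2 and 40.2 CPM in their wild-type littermates. Its log2 fold change there was -0.12 with an interval from -0.57 to 0.34.

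None of the 10 genes was called between *Nova1-/-* mice and their littermates by edgeR's quasi-likelihood test, by DESeq2 or by edgeR's exact test, where 0.0126% of 15901 genes were called by the first of these. Only *Olig2* had an unadjusted p under 0.05, which 7.44% of all genes had. Groups of 3 that did not overlap were found for 0 genes in the higher direction, against 6.8% of all genes, and for 1 gene, *Olig2*, in the lower direction, against 6.61%. The difference between the knockouts' changes, *Nova2-/-* minus *Nova1-/-*, fitted on all 12 mice, was called for 0 of the 10 genes by edgeR's quasi-likelihood test and by DESeq2, and 0 had an unadjusted p under 0.05. Over all 16210 genes 1.83% were called and 18.2% had an unadjusted p under 0.05. The largest of the 10 differences was that of *Cspg4*, 0.40 with an interval from -0.063 to 0.86. Without wild-type replicate 3 of the *Nova2* litters the difference was called for *Pdgfra*, at 0.50 (adjusted p = 0.0045), and for 1005 of 16330 genes in all.

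**Figure D3:**
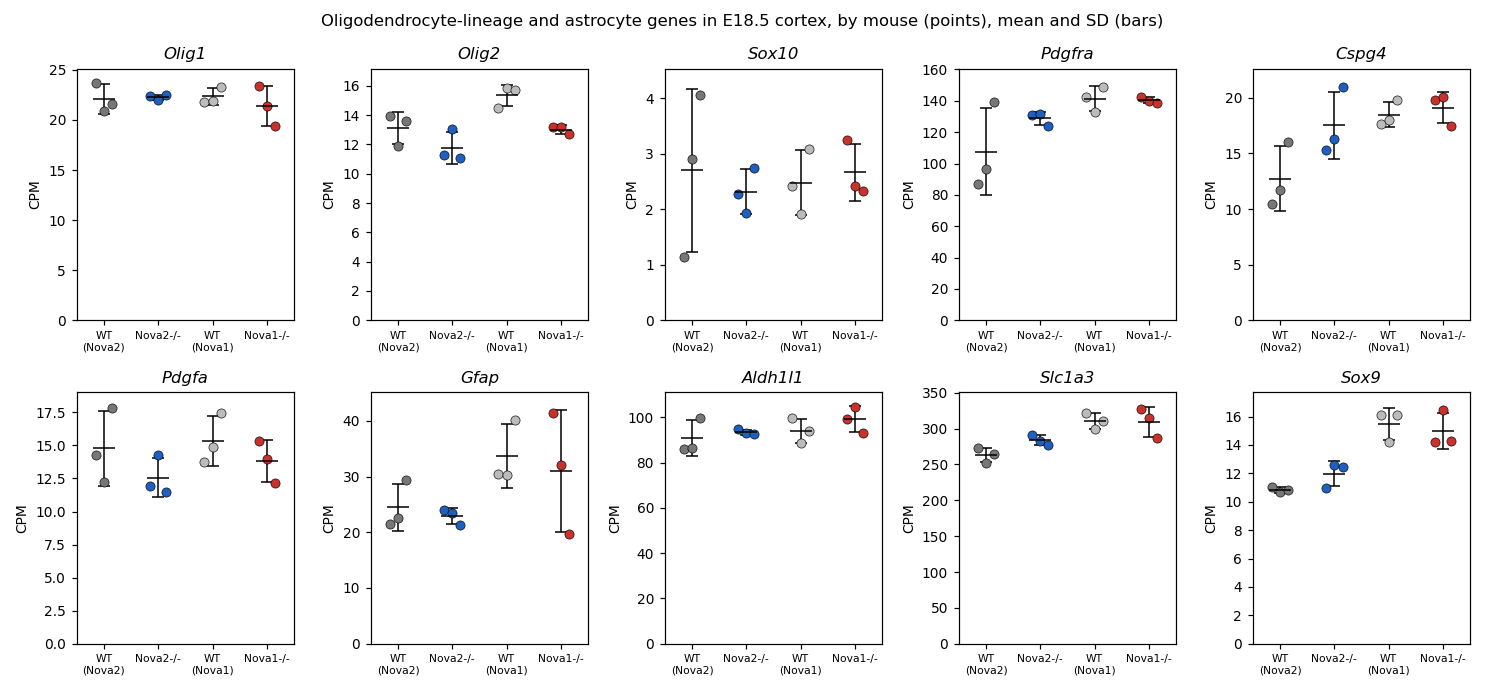
CPM of each of the 10 genes by mouse (points) in 4 groups of 3 mice, with the mean and SD over 3 mice (bars). *Pdgfra* and *Cspg4* are lowest in 2 of the 3 wild-type mice of the *Nova2* litters, *Sox9* is at 10.7 to 12.6 CPM in the *Nova2* litters and 14.2 to 16.5 CPM in the *Nova1* litters, and *Olig2* is lower in all 3 *Nova1-/-* mice than in their littermates.

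Wild-type cortex of the *Nova1* litters was compared with wild-type cortex of the *Nova2* litters to measure how far control values of these genes move between sets of libraries. This comparison uses the same 3 wild-type mice as the *Nova2* comparison. *Sox9* was called higher in the *Nova1* litters, at 16.1, 14.2 and 16.1 CPM against 11.0, 10.7 and 10.8 CPM (log2 fold change 0.51, SE 0.11, interval 0.27 to 0.76, adjusted p = 0.0436). It was the only gene of the 10 called, and 3.03% of the 15918 genes tested were called. The adjusted p of *Sox9* rose to between 0.112 and 0.188 when a wild-type mouse other than replicate 3 of the *Nova2* litters was left out. Without that mouse 5 of the 10 genes were called, beside 3561 of 15986 genes in all. DESeq2 called 3 of the 10, beside 1333 of 15918 genes in all.

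The wild-type values did not overlap, higher in the *Nova1* litters, for 5 genes, *Cspg4*, *Gfap*, *Olig2*, *Slc1a3* and *Sox9*, against 14.4% of all genes, and for 0 genes in the lower direction, against 12.5%. At an unadjusted p under 0.05 were *Sox9*, *Slc1a3*, *Cspg4*, *Gfap* and *Pdgfra*, against 21.1% of all genes. The log2 values were 0.53 for *Cspg4* (adjusted p = 0.103), 0.45 for *Gfap* (0.138), 0.39 for *Pdgfra* (0.188), 0.24 for *Slc1a3* (0.0686) and 0.22 for *Olig2* (0.29). The other 4 genes, *Pdgfa*, *Aldh1l1*, *Olig1* and *Sox10*, lay between -0.13 and 0.050. The median of the 10 was 0.23, beside -0.0019 over all genes tested. The set of litters and the making of the libraries cannot be told apart here. In the *Nova2* comparison, whose controls are among these mice, the corresponding log2 values were 0.46 for *Cspg4*, 0.26 for *Pdgfra* and 0.15 for *Sox9*.

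**Figure D4:**
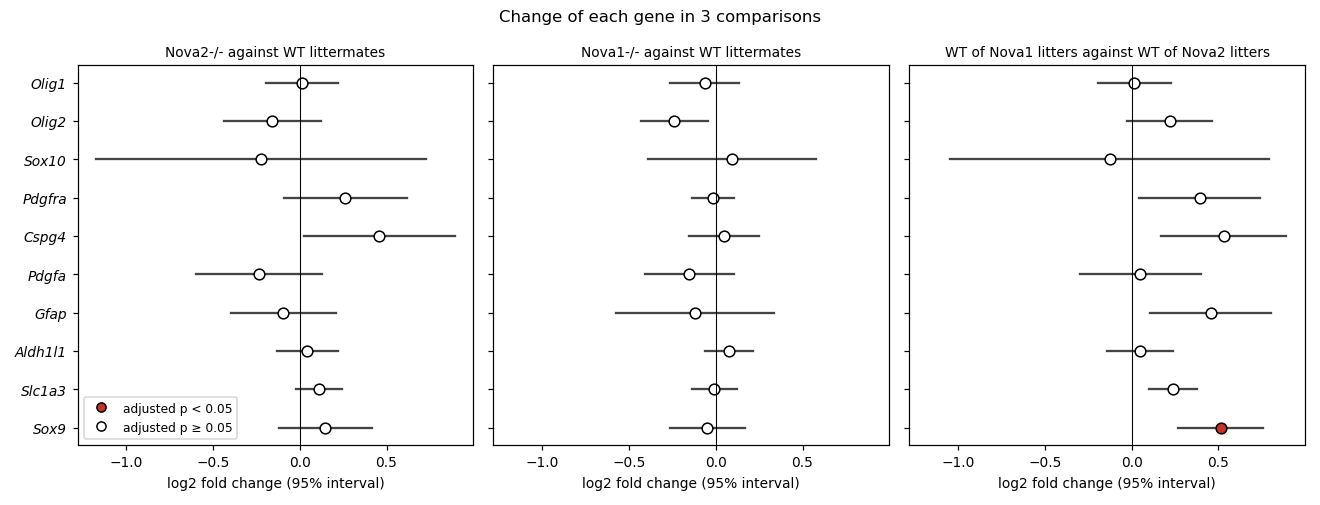
Log2 fold change of the 10 genes with its 95% interval for *Nova2-/-* and *Nova1-/-* mice against their wild-type littermates and for wild-type mice of the *Nova1* litters against those of the *Nova2* litters, with a filled point at an adjusted p under 0.05. The only filled point is *Sox9* between the sets of wild-type mice, and *Sox10* has the widest intervals.

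Genes that share the cells of these 10 were read from the same fits. Of 16 other oligodendrocyte progenitor genes 15 were tested, and in *Nova2-/-* mice 1 rose and 1 fell, with a list median of -0.0058. *Vcan*, the matrix proteoglycan versican, rose from 455, 432 and 395 CPM to 586, 604 and 560 CPM (log2 fold change 0.45, adjusted p = 0.0357). *Lhfpl3*, used as a progenitor marker, fell by 0.55 on the log2 scale, from 27.1, 25.1 and 30.6 CPM to 18.5, 19.0 and 18.9 CPM (adjusted p = 0.0483). The wild-type mice of the *Nova1* litters had 445, 434 and 428 CPM of *Vcan* and 27.2, 26.4 and 25.8 CPM of *Lhfpl3*. In both genes the genotypes did not overlap, and both calls were kept without wild-type replicate 3 and lost without any other mouse. The call of *Lhfpl3* was also lost without a filter on low counts. The extremes of the list were *Matn4* at 1.06 and *Zfp488* at -0.80, neither called.

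Of 19 genes of differentiating oligodendrocytes and myelin 15 were tested and 1, *Cldn11*, was called. *Cldn11* encodes a tight junction protein of myelin that is also known from the arachnoid layer of the meninges. It was at 6.55, 6.81 and 10.5 CPM in wild-type and at 29.7, 26.5 and 25.2 CPM in *Nova2-/-* mice (log2 fold change 1.76, adjusted p = 0.00977). The wild-type mice of the *Nova1* litters had 26.9, 24.1 and 25.1 CPM, near the *Nova2-/-* values. The call was lost without *Nova2-/-* replicate 1 or 2. The list median was 0.088. *Mag*, a myelin adhesion protein, was the lowest of the list with a log2 value of -1.14 that was not called, at 1.17 CPM or less in all 6 mice.

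All 19 other astrocyte genes were tested, and *Gja1* was called in *Nova2-/-* mice. *Gja1* encodes connexin 43, which couples astrocytes and also meningeal cells. It was at 29.1, 26.2 and 39.7 CPM in wild-type and at 80.1, 76.2 and 62.5 CPM in *Nova2-/-* mice (log2 fold change 1.20, adjusted p = 0.0229). The wild-type mice of the *Nova1* litters had 67.0, 55.6 and 62.9 CPM, nearer the *Nova2-/-* values. *Gjb6*, which encodes connexin 30, had the highest log2 value of the list, 1.67, and missed the threshold (adjusted p = 0.0683), with 1.93, 3.14 and 5.70 CPM against 13.9, 11.5 and 9.28 CPM. *Hepacam*, an astrocyte adhesion protein, had the lowest at -0.87 (adjusted p = 0.138). The list median was 0.021. The call of *Gja1* was lost without any mouse but wild-type replicate 3. Without that mouse the test called 4 of the 19 genes, in the fit that called 1433 of 15874 genes.

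Of 10 radial glia genes *Tnc*, the matrix protein tenascin C, was called higher in *Nova2-/-* mice, and the list median was 0.062. It was at 375, 384 and 411 CPM in wild-type and at 501, 505 and 528 CPM in *Nova2-/-* mice (log2 fold change 0.39, adjusted p = 0.0399). The wild-type mice of the *Nova1* litters had 498, 485 and 498 CPM of *Tnc*. *Fam107a* had the lowest log2 value at -0.95, with 12.1 CPM in wild-type replicate 3 and 1.13 to 4.77 CPM in the other 11 mice. Of 17 gliogenic factors and signals 5 had an unadjusted p under 0.05, against 19.2% of all genes. None of the 17 was called by edgeR's quasi-likelihood test, and DESeq2 and edgeR's exact test called 1 each. Their median was 0.15, between *Bmp4*, a ligand that favours astrocytes, at 1.19 and *Shh*, which induces oligodendrocyte progenitors, at -0.51. The call of *Tnc* was lost without any mouse but wild-type replicate 3. Without that mouse the test called 3 radial glia genes and 5 gliogenic genes, in the fit that called 1433 of 15874 genes.

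In *Nova1-/-* mice no gene of these lists was called by edgeR's quasi-likelihood test. At an unadjusted p under 0.05 were 1 of the 15 progenitor genes tested, 1 of 14 myelin genes, 4 of 19 astrocyte genes, 1 of 10 radial glia genes, 1 of 17 gliogenic genes and 0 of 5 PDGF genes. Of all genes 7.44% had such a p. DESeq2 and edgeR's exact test each called 1 radial glia gene and none of the others. The list medians lay between -0.080 for the myelin genes and 0.088 for the gliogenic genes.

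**Figure D5:**
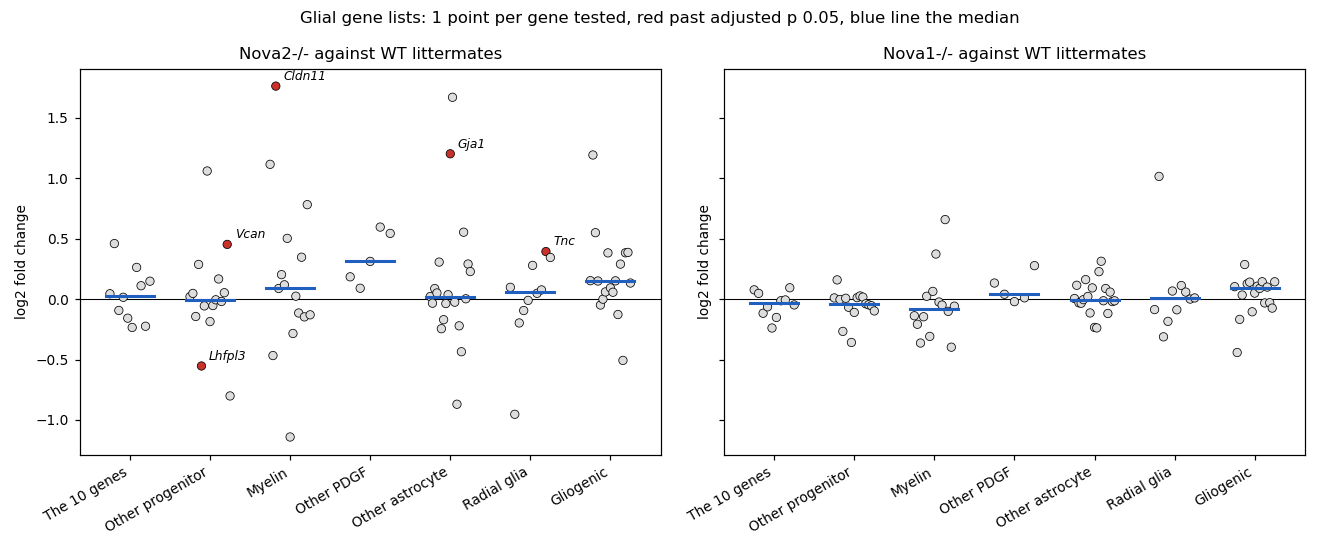
Log2 fold change of each gene tested (points) in the 10 genes and 6 further lists of glial genes, in *Nova2-/-* (left) and *Nova1-/-* mice (right) against their wild-type littermates, with red for an adjusted p under 0.05 and a blue line at the list median. In *Nova2-/-* mice *Cldn11*, *Gja1*, *Vcan* and *Tnc* are red above 0 and *Lhfpl3* below it, and no point is red in *Nova1-/-* mice.

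The same glial lists were read between the sets of wild-type mice. Higher in the *Nova1* litters were *Bcan* (0.63 on the log2 scale), a proteoglycan of the progenitor list, *Cldn11* (1.66) of the myelin list, *Apoe* (0.74), *Aqp4* (0.57), *Gja1* (0.96), *Gjb6* (1.79) and *Slc4a4* (0.52) of the astrocyte list, and *Tnc* (0.34). Each of these calls was lost without wild-type replicate 4 or 6 of the *Nova1* litters. Without wild-type replicate 3 of the *Nova2* litters the test called 3 progenitor genes higher and 1 lower, 3 myelin genes higher and 1 lower, 10 astrocyte genes higher and 0 lower, 1 radial glia gene higher and 4 lower, and 6 gliogenic genes higher and 3 lower. In that fit 3561 of 15986 genes were called in all. The summed level of the 15 meningeal genes in the wild-type mice of the *Nova1* litters was 865 to 1084 CPM, against 247 to 628 CPM in those of the *Nova2* litters.

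Lists of other cells gave these counts in *Nova2-/-* mice. Of 12 endothelial genes *Kdr*, the VEGF receptor, was called higher (0.78), a call lost without any mouse but wild-type replicate 3, and the list median was 0.16. Without that mouse the test called 4 endothelial genes higher, in the fit that called 1433 of 15874 genes. Of 12 microglia genes, 12 cortical neuron genes and 12 ganglionic eminence and interneuron genes none was called by edgeR's quasi-likelihood test, with medians of 0.023, -0.10 and 0.061. The numbers at an unadjusted p under 0.05 were 2, 2 and 1, against 19.2% of all genes. DESeq2 called 2, 1 and 0, and edgeR's exact test 1, 0 and 0. Without wild-type replicate 3 the quasi-likelihood test called 1 microglia gene higher, 2 neuron genes lower and 0 of the interneuron list. The summed level of the neuron genes was 7846 to 8195 CPM in wild-type and 6765 to 7394 CPM in *Nova2-/-* mice. In *Nova1-/-* mice no gene of these lists or of the meningeal and mural lists was called by that test, and DESeq2 and edgeR's exact test each called 1 endothelial gene. The medians there were -0.21 for the meningeal, -0.087 for the mural and -0.082 for the endothelial list. Between the sets of wild-type mice *Col3a1*, *Col1a2*, *Dcn* and *Ogn* of the meningeal list, *Notch3* and *Vtn* of the mural list and *Csf1r* of the microglia list were higher in the *Nova1* litters, and *Neurod2* and *Dlx1* of the neuron and interneuron lists were lower. Each of these 9 calls was lost without wild-type replicate 2 of the *Nova2* litters or without any 1 wild-type mouse of the *Nova1* litters.

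Relations between pairs of the 10 genes, and of *Pdgfra* and *Cspg4* with the summed meningeal and mural genes, were tested across the 6 mice of each set of litters on log2 CPM, 16 relations in all, and none passed Benjamini-Hochberg adjustment. *Gfap* and *Slc1a3* in the *Nova1* litters gave Pearson's r = 0.80 (exact permutation p = 0.0583, adjusted p = 0.311) and Spearman's rho = 0.77 (exact permutation p = 0.103, adjusted p = 0.7), and r = -0.042 without the 2 mice farthest from the median of *Gfap*, so the relation rested on those mice. *Olig1* and *Olig2* gave r = 0.24 (exact permutation p = 0.662) in the *Nova2* litters and 0.51 (exact permutation p = 0.314) in the *Nova1* litters, and r = -0.98 and 0.71 without the 2 mice farthest from the median of *Olig1*. *Pdgfra* and the summed meningeal genes in the *Nova1* litters gave r = 0.65 (exact permutation p = 0.149) and rho = 0.71 (exact permutation p = 0.136), and r = 0.29 without 2 mice. *Cspg4* and the summed mural genes gave r = 0.060 (exact permutation p = 0.886) and rho = 0.14 (exact permutation p = 0.803) in these litters, and r = -0.38 without 2 mice. In the *Nova2* litters the genotypes lay apart in both summed lists, so no uncentred relation across those 6 mice is given for them. With each group centred on its mean, r there was 0.96 for *Pdgfra* and the meningeal genes and 0.75 for *Cspg4* and the mural genes. Wild-type replicate 3 was the highest of its group in all 4. Among the *Nova2-/-* mice the highest meningeal sum, 1131 CPM, went with the lowest *Pdgfra*, 124 CPM. In the *Nova1* litters the centred r were 0.83 and 0.57, and no centred value was tested.

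The genes most like *Olig2* over the 12 mice, after each group of 3 was centred on its mean, were *Ykt6* (Pearson's r = 0.97), *Cyth1* (0.95), *Chga* (0.93), *Nlrp6* (0.93) and *Tex12* (0.90), among 16209 genes. *Pdgfa* was the nearest of the other 9 genes, at rank 120 with r = 0.76, and *Olig1* had r = 0.37. The lowest of the 9 were *Cspg4* at -0.011 and *Sox10* at -0.34. For *Slc1a3* they were *Frmpd3* (0.94), *Zswim7* (0.93), *E130309F12Rik* (0.92), *Atp6v0a2* (0.92) and *Stard8* (0.90), with *Olig1* at rank 79 (0.79) and *Gfap* at rank 302 (0.68). These values describe the same 12 libraries and share their depths. The named genes are the top of 16209 ranked values and were not tested, so a high r here is no evidence of a relation.

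The deposited table of 1991 NOVA2-dependent splicing events, of 539 gene symbols, held 0 events for the 10 genes. An event was listed for 505 (2.19%) of the 23038 gene symbols in the abundance table, so a count of 0 among 10 is near that share. Of the other glial lists, 4 of the 16 progenitor genes had events, *Vcan* with 9 and *Ptprz1*, *Lhfpl3* and *Pcdh15* with 1 each, as did *Slc1a2* of the astrocyte list and *Zbtb20* of the gliogenic list with 2 each. The myelin, PDGF and radial glia lists had 0. *Ptprz1* is a receptor phosphatase of progenitors and radial glia, and *Pcdh15* a protocadherin enriched in progenitors. Their events, of the cassette exon type, each span an annotated coding microexon, of 21 nt in *Ptprz1* and of 15 nt in *Pcdh15*. These are shown here from the mm9 genome, plus strand, 5′ to 3′. Only positions and types of the events were used, and inclusion of these exons was not measured here. Capitals mark the exon, and 75 nt of intron stand on each side.
*Ptprz1*, chr6:22974639-22974809: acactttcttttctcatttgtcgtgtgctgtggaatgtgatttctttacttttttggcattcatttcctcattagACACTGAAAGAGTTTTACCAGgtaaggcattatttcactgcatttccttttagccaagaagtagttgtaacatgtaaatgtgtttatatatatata
*Pcdh15*, chr10:73513766-73513930: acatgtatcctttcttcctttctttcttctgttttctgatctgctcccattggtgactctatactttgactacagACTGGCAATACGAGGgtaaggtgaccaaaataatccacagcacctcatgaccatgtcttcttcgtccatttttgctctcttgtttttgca
Both exons have a length that is a multiple of 3, so including or leaving out either exon keeps the reading frame.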

How the data were processed

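RNA-seq was measured in 12 E18.5 cortices. Per the study's methods, Trizol RNA was depleted of ribosomal RNA and TruSeq libraries were sequenced from both ends, and OLego placed the reads on mm10. The authors then deposited expected counts per gene symbol, not normalized, here rounded to whole numbers. The counting program and its annotation are not given in the sources used here. The deposited columns of log2 fold changes, FDR values and *Δ*I, the change of inclusion, were not used. From the deposited event table, in mm9, only positions and event types were taken, under a unit of its own. The labels name edgeR and mm9. Midbrain and hindbrain abundance is not analysed here.

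Each comparison was fitted on the whole table with edgeR 4.0.16 in R 4.3.3 (TMM, filterByExpr, glmQLFit and glmQLFTest), Benjamini-Hochberg adjustment over all genes tested and a threshold of 0.05, using only the 6 mice compared, or all 12 for the difference between knockouts. Printed CPM use TMM factors over 12 mice. Intervals of log2 fold changes are 95% intervals from the fit. The fit was tested on simulated counts. Wild-type mice were assigned to litters from the sample names and the study's methods, and the methods call the mice compared littermates without saying which mice share a litter, so p-values measure the spread between these mice. TruSeq libraries of this kind keep no strand, and annotated genes on the opposite strand overlap *Pdgfa*, *Gfap* and *Aldh1l1*, 3 of the 10, whose reads may include theirs.

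The 10 genes and the lists were chosen with earlier results of these data known. Named were the 10 genes, every list gene past the threshold in a comparison except a few not reported here, the highest and lowest of each list in the *Nova2* comparison, and the 5 genes most like *Olig2* and *Slc1a3*. *Map2* and *Myrf* were read under the older symbols Mtap2 and Gm98. Genes named beside these were chosen after their values were seen. Correlations used log2 CPM with a prior count of 1 and all 720 orderings of 6 mice, two-sided. Results were recomputed without a filter, with a minimum of 10 counts in each sample, with upper-quartile and RLE normalization, by DESeq2 1.42.0, by edgeR's exact test, with all 12 mice in a common fit, with each mouse left out, with a replicate block, with CPM and a prior count of 5 in correlations, and, added after the data were seen, the same settings for list genes. Python 3.11.15, pandas 2.3.3, scipy 1.17.1 and matplotlib 3.10.9 were used.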

Additional observations from a re-analysis of the deposited data

Results flagged for a closer look

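The difference between the changes in *Nova2-/-* and *Nova1-/-* mice, the first minus the second, tested in the fit on all 12 mice, passed an adjusted p of 0.05 for the following list genes and for none of the 10 genes. In the progenitor list the difference of log2 changes was -0.57 for *Lhfpl3* (adjusted p = 0.0355) and 0.50 for *Vcan* (0.0124). In the astrocyte list it was 1.42 for *Gja1* (0.00193) and 1.89 for *Gjb6* (0.0201). It was 2.11 for *Cldn11* of the myelin list (0.000244) and 0.38 for *Tnc* of the radial glia list (0.0404). In the meningeal list it was 1.61 for *Col1a1* (0.0395), 1.84 for *Col1a2* (0.033), 1.88 for *Col3a1* (0.0214), 1.74 for *Crabp2* (0.00689), 1.53 for *Dcn* (0.0124), 1.54 for *Lum* (0.0177) and 1.24 for *Ogn* (0.0126). It was 1.14 for *Kdr* of the endothelial list (0.00193), 0.71 for *Csf1r* of the microglia list (0.0218) and 1.17 for *Vtn* of the mural list (0.0167). Under all 17 alternatives the calls of *Vcan*, *Gja1*, *Kdr*, *Crabp2*, *Dcn*, *Ogn* and *Cldn11* were kept. *Lhfpl3*, *Tnc* and *Col1a2* were called under 7 of them, *Col1a1* under 8, and the other 5 genes under 12 to 15. All alternatives drew controls from the same litters. Mean CPM of the genes kept throughout follows for wild-type, *Nova2-/-*, *Nova1*-litter wild-type and *Nova1-/-* mice. It was 427, 583, 435, 419 for *Vcan*, 31.7, 72.9, 61.9, 52.6 for *Gja1* and 51.8, 88.7, 61.6, 47.6 for *Kdr*. It was 3.91, 8.36, 7.02, 4.42 for *Crabp2* and 26.5, 67.0, 61.9, 53.6 for *Dcn*. It was 20.2, 43.9, 35.6, 32.6 for *Ogn* and 7.96, 27.1, 25.4, 19.7 for *Cldn11*.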

How the results depend on the processing

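None of the 10 genes was called in *Nova1-/-* mice under any of 13 alternatives. In *Nova2-/-* mice 0 to 2 were called with a mouse left out, the 2 being *Pdgfra* and *Cspg4* without wild-type replicate 3, and 0 under the other settings, and for the difference between knockouts 0 to 1. Between the sets of wild-type mice 3 were called by DESeq2, 3 with all 12 mice in a common fit, 2 by edgeR's exact test, and 0 to 5 with a mouse left out. Over all genes the *Nova2* comparison gave 846 calls by DESeq2, 1334 in the common fit, 624 by the exact test and 7 to 1433 with a mouse left out. *Nova1* gave 1 with at least 10 counts in every sample, 34 by DESeq2, 54 by the exact test and 1 to 10 with a mouse left out. The wild-type mice gave 1333, 1590 and 1156 by the same tools and 3 to 3561 with a mouse left out, and the difference gave 851 by DESeq2 and 113 to 1005. Signs of values that were not called turned when mice were left out. In the *Nova2* comparison the ranges were -0.014 to 0.063 for *Olig1*, -0.60 to 0.24 for *Sox10* and -0.19 to 0.059 for *Gfap*. For *Nova1* they were -0.13 to 0.0022 for *Olig1*, -0.072 to 0.29 for *Sox10*, -0.051 to 0.024 for *Pdgfra*, -0.37 to 0.12 for *Gfap* and -0.046 to 0.047 for *Slc1a3*. Between wild-type mice they were -0.016 to 0.065 for *Olig1*, -0.50 to 0.36 for *Sox10* and -0.057 to 0.21 for *Pdgfa*. For the difference they were -0.71 to 0.15 for *Sox10*, -0.19 to 0.070 for *Pdgfa*, -0.23 to 0.28 for *Gfap* and -0.084 to 0.037 for *Aldh1l1*. The cause of these changes was not tested, and fewer mice enter each such fit.

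The replicate block in the *Nova2* litters gave 220 calls over all genes and 0 among the 10. Same-numbered mice correlated at 0.116, 0.0047 and 0.162 in their deviations from the group means. Each of *Nova2-/-* replicates 1 and 3 correlated best with its own number and replicate 2 with wild-type replicate 1. Not every pair passed 0.1 and the labels give the numbers no meaning, so they were not taken as pairs. Under the block the calls of *Lhfpl3*, *Abcc9*, *Crabp2* and *Ogn* were lost. Each group held 3 mice, *Sox10* had 29 to 121 counts per mouse, and its intervals were the widest of the 10 genes.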

Other observations

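*Hepacam* was at 13.4 CPM and *Fam107a* at 12.1 CPM in wild-type replicate 3, each the highest of the 12 mice. *Neurod2* was at 101 to 114 CPM in the 6 mice of the *Nova2* litters and at 65.5 to 84.4 CPM in the 6 mice of the *Nova1* litters.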
